A study of Rattus norvegicus and Mus musculus and Macaca mulatta with 84 samples.

Results

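Sdr16c6, Ltc4s, Stac3 and Paqr9 are 4 genes whose liver RNA was far lower in rats with long-standing diabetes than in prediabetic rats. They were chosen by those same rat levels, by name, out of 32754 genes in the rat table, so their rat levels and changes below are a description with no test. The data come from UCD-T2DM rats, a strain in which obesity and insulin resistance come before type 2 diabetes. Liver was taken from prediabetic rats (n = 5) and from rats with diabetes of 2 weeks (n = 4), 3 months (n = 5) and 6 months (n = 6). Each n counts libraries. A second table of 48440 genes holds liver of C57BL/6J mice given LNA-29, a locked nucleic acid against the microRNA miR-29 (n = 5), and of their controls (n = 6), and it played no part in the choice. Every rat is of the diabetes-prone strain, the prediabetic animals included, and no rat of a strain without diabetes is among them. Ages, sexes and the dose and duration of LNA-29 are not given in the labels, nor is what the control mice received. Each library has its own sample name, but the labels do not say that libraries came from separate animals, so each p-value reflects only how far libraries of a group scatter, and that scatter may be technical. Together with small RNA libraries not used here, the series holds 84 libraries.

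The 4 genes serve unrelated tasks. Sdr16c6 encodes a short-chain dehydrogenase that, in mice, oxidises retinol to retinaldehyde, the step before retinoic acid is made. Ltc4s encodes leukotriene C4 synthase, which joins glutathione to leukotriene A4 and so opens the cysteinyl leukotriene branch, best known from mast cells, eosinophils and macrophages. Stac3 encodes an adaptor of skeletal muscle that binds the voltage-gated calcium channel of the muscle membrane and is needed for excitation-contraction coupling. Paqr9 encodes a membrane protein of the progestin and adipoQ receptor family, also named membrane progesterone receptor epsilon, and in mouse liver it is reported to shield the fatty acid sensor PPARalpha from degradation. Insulin raises the transcription of glycolytic and lipogenic genes in hepatocytes, which is why such a list is given beside the 4 genes' own pathways.

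The promoters are shown because the 4 RNAs fell in the same livers. Only short motifs and base shares were read from them, and how alike the sequences are was not measured. Each run is the 250 bases before the annotated start, 5′ to 3′ on the gene's strand, from RefSeq on build GRCr8, and all 4 genes matched by symbol. Sdr16c6 lies on the minus strand (window chr5:21916289-21916538), Ltc4s on the minus strand (chr10:35063595-35063844), Stac3 on the plus strand (chr7:65228225-65228474) and Paqr9 on the plus strand (chr8:104993634-104993883). Capitals mark every match to the motifs named next.
Sdr16c6: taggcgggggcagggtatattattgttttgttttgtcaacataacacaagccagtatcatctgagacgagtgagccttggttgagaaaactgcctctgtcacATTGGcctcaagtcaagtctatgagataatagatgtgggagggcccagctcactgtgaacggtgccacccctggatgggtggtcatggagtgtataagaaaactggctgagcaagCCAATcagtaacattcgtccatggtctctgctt
Ltc4s: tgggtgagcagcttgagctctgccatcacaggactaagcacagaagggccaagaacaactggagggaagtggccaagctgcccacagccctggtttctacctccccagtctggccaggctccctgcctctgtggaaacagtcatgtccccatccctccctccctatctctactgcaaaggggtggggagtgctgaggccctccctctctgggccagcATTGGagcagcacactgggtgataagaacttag
Stac3: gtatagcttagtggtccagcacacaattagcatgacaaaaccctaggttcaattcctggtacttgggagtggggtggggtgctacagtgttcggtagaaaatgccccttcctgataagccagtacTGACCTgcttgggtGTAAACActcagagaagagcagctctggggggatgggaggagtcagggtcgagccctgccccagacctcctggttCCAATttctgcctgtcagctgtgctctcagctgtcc
Paqr9: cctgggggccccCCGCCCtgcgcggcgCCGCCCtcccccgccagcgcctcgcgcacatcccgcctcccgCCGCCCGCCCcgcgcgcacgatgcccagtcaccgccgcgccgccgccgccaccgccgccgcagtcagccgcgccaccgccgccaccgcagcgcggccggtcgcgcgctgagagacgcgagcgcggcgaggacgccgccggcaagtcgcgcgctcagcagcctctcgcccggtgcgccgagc

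Of 7 motifs searched on both strands, CCAAT stood in the promoters of Sdr16c6 (2 matches), Ltc4s (1) and Stac3 (1), and 34.0% of 33469 rat promoters of that length hold it. In Sdr16c6 and Stac3 a match on the gene's strand began 33 and 36 bases before the start, and in Ltc4s a match on the opposite strand began 33 bases before it. Stac3 also held a nuclear receptor half-site, AGGTCA, on the opposite strand (in 14.1% of promoters) and a forkhead core, GTAAACA (3.21%). Paqr9 held the GC box GGGCGG 4 times on the opposite strand, the last pair overlapping (the GC box is in 30.5% of promoters). TATAAA (12.9%), the E-box CACGTG (5.59%) and the STAT5 core TTCNNNGAA (7.67%) matched in none of the 4 windows, which says only that these letters are not there. G and C made up 84% of the Paqr9 window, which held 52 CG pairs, and 99.8% of promoters had a lower share. The share was 48% for Sdr16c6 with 4 CG pairs, 58.8% for Ltc4s with 0, and 54% for Stac3 with 2, against a median of 51.2% over all promoters. No motif was in all 4 windows.

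Levels are normalised counts as the authors deposited them, set on a common scale between libraries of a table, with column sums of 37623525 to 49858906 in rats and 43341525 to 52750017 in mice. They are not per length, so levels of different genes are not compared. Changes are differences of mean log2(normalised count + 1), which understates the change of low genes. Some genes that every cell uses are also listed at 0 in these rat libraries, Rps6 in 11 of 20 and M6pr in 16 of 20, so a 0 is reported only as listed. All 4 genes averaged above 10 over the rat libraries and so passed the filter on low values, Sdr16c6 through its prediabetic and 2-week libraries. On the second principal component of all tested genes, prediabetic replicate 2 lay at -58.1, beyond all other libraries (-42.1 to 30.3). Its levels of the 4 genes lay at an end of the prediabetic range for Sdr16c6, where it was lowest, and for Ltc4s and Stac3, where it was highest. Hepatocyte markers fitted the labelled tissue, with albumin (Alb) between 1899408 and 6644297 in every rat library.

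Sdr16c6 had the largest differences of the 4 from the prediabetic mean at each time. Its 5 prediabetic libraries held 280.0, 191, 511, 1715 and 1813 normalised counts. At 2 weeks the 4 libraries held 229, 81.8, 31.1 and 44.5, and 3 of them lay below the lowest prediabetic library. The early and prediabetic ranges thus touched in a single 2-week library, replicate 1. At 3 months the libraries held 0, 1.31, 3.41, 1.06 and 1.10, and at 6 months they ran from 0 through a median of 0.772 to 3.64, with 3 of 6 listed at 0. No 3-month or 6-month library came near the lowest prediabetic or 2-week value, and the groups did not overlap. On the log2 scale the mean differed from the prediabetic mean by -3.08 at 2 weeks, -8.17 at 3 months and -8.37 at 6 months. Most of the fall lay between 2 weeks and 3 months (-5.09), and 3 to 6 months added -0.20. The prediabetic libraries themselves split widely, and replicates 4 and 5 were the highest. Without those replicates the 6-month difference was -7.35, an alternative chosen after seeing the data.

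Ltc4s held 292, 309, 169, 195 and 212 normalised counts in the prediabetic libraries, which lay within 1.83-fold of each other. At 2 weeks it held 329, 118, 56.4 and 41.3. Replicate 1 was above every prediabetic library and the other 3 libraries were below all of them. The 3-month libraries held 35.7, 0, 0.919, 5.67 and 51.4, all under the lowest prediabetic level. At 6 months the lowest library was listed at 0, the median was 17.7 and the highest, replicate 4, reached 182, inside the prediabetic range. Log2 differences from the prediabetic mean were -1.22 at 2 weeks, -4.93 at 3 months and -3.61 at 6 months, so the mean was 1.32 higher at 6 months than at 3 months. The 6-month value was -2.77 without replicate 2, which is listed at 0, and -4.27 without replicate 4.

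Stac3 stood near its prediabetic mean at 2 weeks and far below it at 3 and 6 months. It held 3518, 4883, 1348, 2345 and 2154 normalised counts in prediabetic livers and 5216, 4217, 848 and 2465 at 2 weeks. The 2 ranges overlapped and the log2 means were 0.01 apart, with 1 of 4 libraries below the lowest prediabetic one. By 3 months the libraries held 178, 48.6, 530, 84.5 and 53.3, all below every earlier library. At 6 months they ran from 7.70 through a median of 128 to 1565, and the highest, replicate 4 again, lay inside the prediabetic range while the other 5 lay below it. The log2 differences from the prediabetic mean were -4.47 at 3 months and -4.60 at 6 months, and the 6-month value was -5.38 without replicate 4. The fall between 2 weeks and 3 months was -4.48.

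Paqr9 had a lower mean at each later time, in separate groups of libraries. Prediabetic livers held 3645, 3185, 2756, 3940 and 4948 normalised counts, within 1.80-fold of each other. Those at 2 weeks held 2175, 3204, 2410 and 1204, of which 3 were below the lowest prediabetic library. At 3 months the libraries held 1073, 219, 849, 112 and 1652, all below the prediabetic range, though replicate 5 lay above the lowest 2-week library. At 6 months they ran from 50.01 through a median of 222 to 716, and none reached the prediabetic or 2-week range. The 3-month and 6-month ranges overlapped. The mean log2 level differed from the prediabetic mean by -0.77 at 2 weeks (SE 0.71), -2.80 at 3 months and -4.18 at 6 months. Between successive times the differences were -0.77, -2.03 and -1.38, and none was tested.

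**Figure D1:**
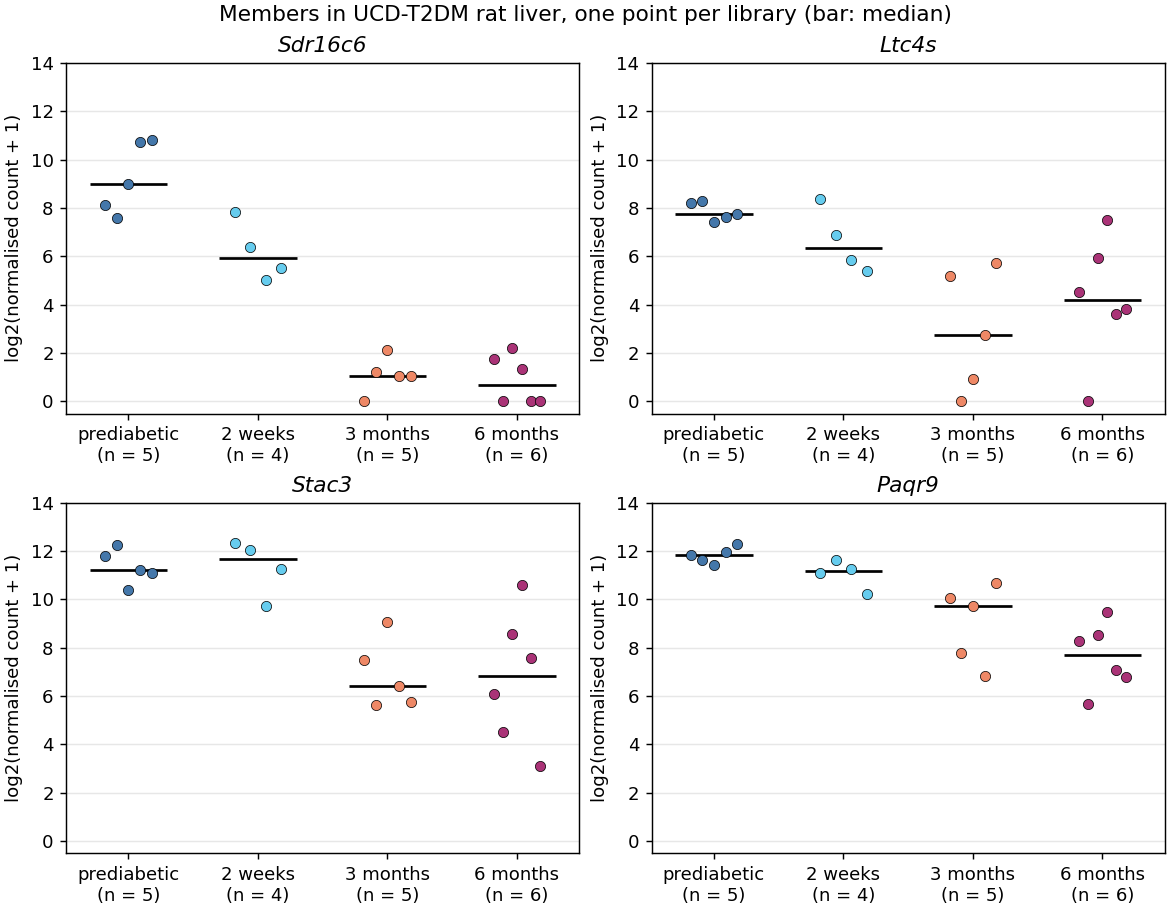
Levels of the 4 genes in each rat library as log2(normalised count + 1), by group from prediabetic to 6 months, with one point per library and the median as a bar. Sdr16c6 is already low at 2 weeks and near 0 later, and Stac3 is at its prediabetic level at 2 weeks. The Paqr9 median is lower at each later time, with overlap between neighbouring times. Replicate 4 is the highest 6-month point for Ltc4s and Stac3.

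The size of the fall at 2 weeks was not alike for the 4 genes. Among 13640 tested genes ranked by their fall at 2 weeks, Sdr16c6 was 4th, Ltc4s 71st, Paqr9 181st and Stac3 6458th. At 3 months the ranks were 2nd, 5th, 24th and 6th, and at 6 months 2nd, 23rd, 13th and 7th, in the same order of genes. The rule used these contrasts, so nothing is read from the ranks. For background, limma with Benjamini-Hochberg adjustment over all genes called 0.00% of genes at 2 weeks in either direction (0.00% lower and 0.00% higher, with 1077 genes at an unadjusted p under 0.05). It called 16.5% at 3 months (8.72% lower, 7.76% higher) and 21.1% at 6 months (10.0% lower, 11.0% higher). All libraries of the later group lay below the lowest prediabetic library for 2.29% of genes at 2 weeks, 6.60% at 3 months and 5.17% at 6 months. Of the 4 genes, 0 were in that state at 2 weeks, 4 at 3 months, and 2 at 6 months, namely Sdr16c6 and Paqr9. Whether fewer cells carried these RNAs or each cell carried less cannot be told apart in whole liver.

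Variation between libraries of a group was large for all 4 genes. Their within-group SD on the log2 scale was 1.14 for Sdr16c6, 1.99 for Ltc4s, 1.80 for Stac3 and 1.17 for Paqr9, against a median of 0.27 over all tested genes. Larger values belonged to 2.05%, 0.528%, 0.616% and 1.91% of genes, in that order. Where the spread sat differed by gene. The highest Paqr9 library stood 1.80-fold above the lowest in prediabetic rats, 2.66-fold at 2 weeks, 14.7-fold at 3 months and 14.3-fold at 6 months. Stac3 libraries spanned 3.62-fold before diabetes, 6.15-fold at 2 weeks, 10.9-fold at 3 months and 203-fold at 6 months. Sdr16c6 was already spread 9.47-fold in prediabetic livers and 7.35-fold at 2 weeks, and Ltc4s 1.83-fold and 7.97-fold at those times.

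The next question was whether the same libraries were high or low for several of the genes once the group means, on which the genes were selected, were taken away. Over all 20 libraries, deviations of Ltc4s and Paqr9 had a Pearson r of 0.74 and a Spearman rho of 0.66. With 100000 permutations within groups the p-values were 0.00886 and 0.0162. They were 0.0532 and 0.0973 after Benjamini-Hochberg adjustment over 6 pairs, so the relation missed the threshold. Such permutations cannot tell a relation of 2 genes apart from a shift that many genes of a library share. The share of all gene pairs with an r this high is not given here. Without the 2 libraries farthest out in Ltc4s, 6-month replicates 2 and 4, r was 0.59. Among the 6 libraries at 6 months alone, given as a description with no test, r was 0.96 and rho 0.94, and r was 0.93 without replicate 4. Those 6 libraries stood in nearly one order for both genes, from replicate 2, lowest in both, to replicate 4, highest in both. At 6 months r was also 0.81 for Stac3 and Paqr9 and 0.75 for Ltc4s and Stac3. A high r there is thus not particular to Ltc4s and Paqr9. Sdr16c6 gave 0.80 with Paqr9, 0.68 with Ltc4s and 0.58 with Stac3. Its 6-month libraries lay between 0 and 3.64 normalised counts, with 3 of 6 listed at 0. Nothing is read from these 3 values, which rest on levels near the floor. Stac3 and Paqr9 gave r = 0.55 and rho = 0.48 over all 20 (permutation p = 0.0512 and 0.0793, adjusted p = 0.154 and 0.132), and r = 0.41 without 6-month replicates 4 and 6. Ltc4s and Stac3 gave r = 0.49 and rho = 0.46 (permutation p = 0.104 and 0.0878), and r fell to 0.18 without 6-month replicates 2 and 4, on which it rests. Over all 20 libraries Sdr16c6 paired with Ltc4s, Stac3 and Paqr9 at r of 0.19, 0.33 and 0.33, and none of these passed the threshold (permutation p of 0.383, 0.141 and 0.109).

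**Figure D2:**
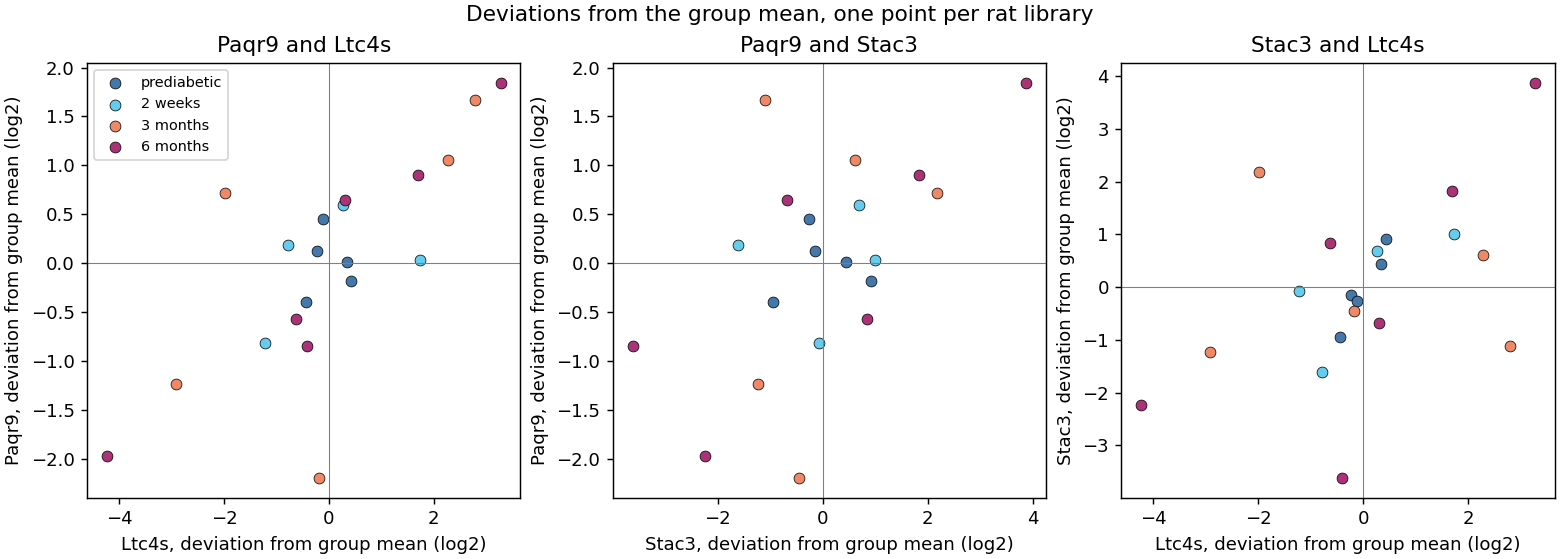
Deviation of each rat library from its group mean, on the log2(normalised count + 1) scale, for Paqr9 against Ltc4s, Paqr9 against Stac3 and Stac3 against Ltc4s, with points coloured by group. The 6-month points rise together in the first panel (r = 0.96, n = 6), and the later groups are spread more widely than the prediabetic one.

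Genes with the most similar profile were named by Pearson r over the 20 rat libraries, 5 with the highest and 3 with the lowest r for each gene. Since r over 20 libraries mostly follows the group means, r of the deviations within groups is given too, and none of these values is a test. Sdr16c6 was closest to Ky (r = 0.96, deviations 0.56), Ddhd1, a phospholipase (0.95, 0.75), D2hgdh, which oxidises D-2-hydroxyglutarate (0.95, 0.64), the matrix metalloproteinase Mmp27 (0.94, 0.48) and Scd, stearoyl-CoA desaturase (0.93, 0.38). Scd had median normalised counts of 61964 in prediabetic, 14090 in 2-week, 69.9 in 3-month and 94.9 in 6-month livers. Ky, at medians of 102, 31.3, 0 and 0.490 at those times, went the same way. The tetraspanin Cd63 ran opposite to Sdr16c6 (r = -0.95), with medians of 1091, 1599, 3617 and 5657, as did LOC103689961 and Adamtsl4 (both r = -0.95).

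Ltc4s had looser relations. Its closest genes were Gid8, Tmem125, Itih1, Igfals and Cd81, with r of 0.89, 0.89, 0.88, 0.87 and 0.87. Igfals, the subunit that keeps insulin-like growth factors in the circulation, also had the highest r of deviations with Ltc4s among them (0.88), with medians of 13551, 10986, 5730 and 4109 from prediabetic to 6 months. The cell cycle genes Kif11 (r = -0.86) and Cdkn2c (-0.85) and the Wnt inhibitor Apcdd1 (-0.85) ran opposite. Apcdd1 had medians of 13.6 in prediabetic and 27.9 in 2-week livers, and of 150 at 3 months and 172 at 6 months.

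For Stac3 the closest gene was Nrep (r = 0.91), followed by AABR07048487.2, AABR07048436.1, LOC259244 and LOC500473 (all r = 0.90), for which the reference tables give no function. At 6 months all 4 of the latter were lowest in replicate 6 and highest in replicate 4, so they may not be 4 separate signals. Whether they are near-identical copies was not tested. Nrep had medians of 295, 405, 36.5 and 23.2 from prediabetic to 6 months and thus shared the level kept at 2 weeks. LOC259244 had medians of 126132, 133851, 30339 and 18247. The small proteoglycan decorin, Dcn (r = -0.89), the acyl-CoA synthetase Acsf2 (-0.88) and the syntrophin Sntb1 (-0.87) ran opposite. Acsf2 had medians of 381 and 447 in prediabetic and 2-week livers, and of 2709 and 2504 at 3 and 6 months.

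Paqr9 had the closest relations of the 4, also within groups. Bdh1, which interconverts the ketone bodies, followed it at r = 0.97 (deviations 0.92), the growth hormone receptor Ghr at 0.96 (0.86), Cyp4f39 at 0.95 (0.84), the deiodinase Dio1, which activates thyroid hormone, at 0.95 (0.92) and Maged1 at 0.95 (0.89). Bdh1 had medians of 15954, 15240, 8554 and 5623 from prediabetic to 6 months, and Dio1 of 5780, 5321, 2660 and 1677. Susd2 (r = -0.96), Rasgrp2 (-0.95) and the cation channel Trpm4 (-0.94) ran opposite, with deviations at -0.89, -0.85 and -0.75. Trpm4 had medians of 195, 288, 625.3 and 1451.

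**Figure D3:**
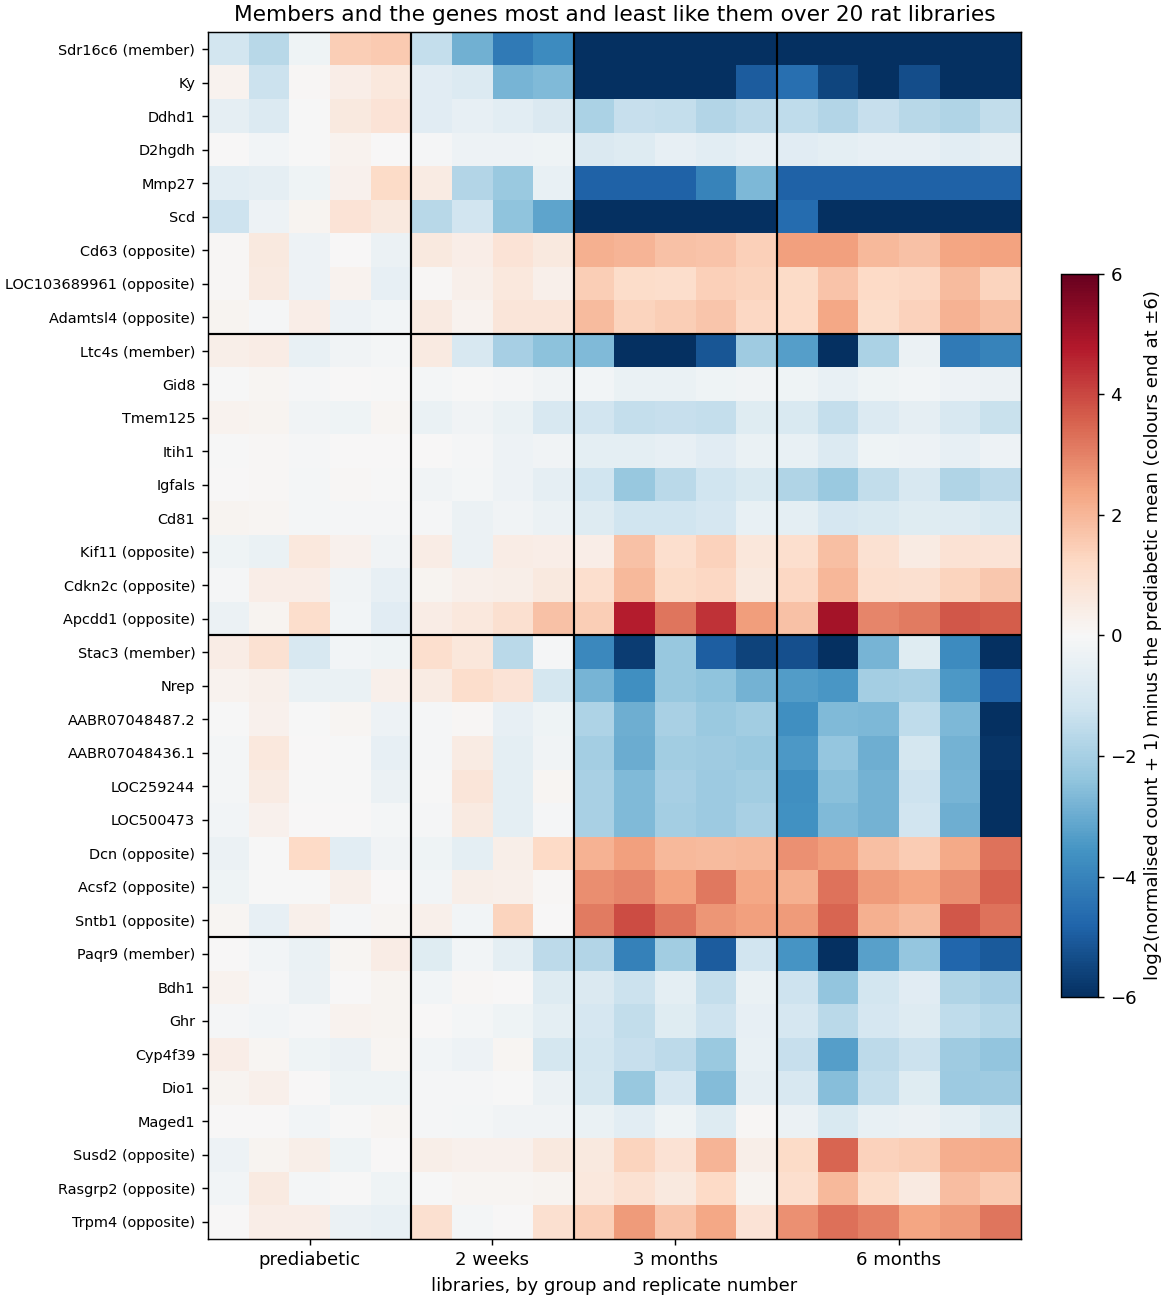
Each row is a gene and each column a rat library, coloured by log2(normalised count + 1) minus the gene's prediabetic mean (colours end at 6 and -6), with each of the 4 genes above the 5 genes most like it and the 3 running opposite. Sdr16c6, Ky and Scd are deep blue in all 3-month and 6-month libraries, and the rows of Stac3 are pale at 2 weeks.

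Other genes of each pathway were read from lists, tested by limma with Benjamini-Hochberg adjustment over all 13640 genes. In retinoid metabolism genes moved in both directions. At 6 months 7 of 21 tested genes rose and 4 fell (against 11.0% and 10.0% of all genes), with a list median of 0.12 against 0.01 over all genes. Cyp26a1, which breaks down retinoic acid, was at 374 ± 182 normalised counts at 6 months and 95.6 ± 66.8 in prediabetic livers (SD, n = 6 and 5), and it rose by 2.11 on the log2 scale (SE 0.48, adjusted p = 0.00473). Dhrs9, another retinol dehydrogenase, rose by 2.10 (adjusted p = 0.00560), at 26.6 ± 19.9 against 4.49 ± 1.69. Aldh1a7 rose by 2.05 (adjusted p = 0.0327), a call that ended in 7 of 16 alternatives with adjusted p up to 0.0994. Aldh1a7 averaged under 10 in prediabetic, 2-week and 3-month livers, so it passed the filter on low values only through its 6-month libraries. It is among the 7 counted as risen. Dhrs4 fell by 0.71, Rdh14 by 0.58 and Dhrs3, which reduces retinaldehyde, by 0.58 (adjusted p = 0.00189, 0.00133 and 0.0227), and the call of Dhrs3 ended in 5 of 17 alternatives. At 3 months 3 rose (Dhrs9 2.22, Aldh1a3 1.07, Lrat 0.49) and 3 fell, Dhrs4, Rdh14 and Dhrs3 again. Sdr16c5, the nearest relative of Sdr16c6, averaged 0.772 over the rat libraries and was not tested. The number of retinoid genes called, 11, ran from 6 to 12 when single libraries were left out, with 6 without 6-month replicate 2 or prediabetic replicate 4 and 7 without prediabetic replicate 1 or 3.

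In the leukotriene list 4 of 12 tested genes rose at 6 months and 1 fell (against 11.0% and 10.0% of all genes), and its median was 0.34. Pla2g4a, the phospholipase that frees arachidonic acid, rose by 1.04 (SE 0.23, adjusted p = 0.00427), at 290 ± 116 normalised counts at 6 months against 131 ± 11.9 in prediabetic livers. Alox5, the lipoxygenase that makes leukotriene A4, rose by 1.07 (adjusted p = 0.0345) at a low level, 20.2 ± 7.42 against 9.42 ± 4.29, and that call ended in 9 of 17 alternatives (adjusted p up to 0.115). Ggt1, which turns leukotriene C4 into D4, showed the largest change of the list, at 424 ± 164 against 31.4 ± 16.2 (log2 3.85, SE 0.43, adjusted p = 1.5e-05). The fall was that of the glutathione transferase Mgst1 (log2 -0.43, adjusted p = 0.00432). The 5 calls became 3 without 6-month replicate 3 or 5 or without prediabetic replicate 4 or 5. At 3 months Ggt1, Alox5 and Pla2g4a rose (2.90, 1.15 and 1.08), and 4 genes fell, among them Mgst3, Ptgr1 and Mgst2 (-0.96, -0.87 and -0.68), of which Mgst2 can also make leukotriene C4. Macrophage markers also rose: 7 of 8 at 6 months and 7 of 8 at 3 months (against 11.0% and 7.76% of all genes). Their summed level ran from 17572 to 48756 at 6 months, 17060 to 38221 at 3 months and 11829 to 14878 at 2 weeks, against 11820 to 17962 in prediabetic livers, and their part in the result was not tested.

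Mast cell and eosinophil markers, of cells rich in Ltc4s, summed to 448 to 830.1 in prediabetic, 447 to 623 in 2-week, 537 to 932 in 3-month and 339 to 752 in 6-month livers, ranges that overlap. Of the 8, Epx, Prg2, Fcer1a and Tpsb2 averaged under 10. The sums mostly follow Kit and Hdc, which averaged 280 and 235 over the rat libraries, against 53.5 for Cpa3 and 17.5 for Ms4a2. They therefore do not show whether the number of these cells was alike between groups. Among the 4 tested, Ms4a2 rose (log2 1.35, adjusted p = 0.0134) and Hdc fell (-1.45, adjusted p = 0.0222) at 6 months, and Kit rose at 3 months (0.57, adjusted p = 0.0152). The call of Hdc ended in 3 of 17 alternatives.

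None of the 3 tested partners of Stac3 in excitation-contraction coupling passed the test at any time, and the other 9 in the table averaged under 10. The calcium release channel Ryr1 was at 116 ± 36.7 normalised counts at 6 months against 149 ± 25.3 in prediabetic livers (log2 -0.41, adjusted p = 0.217), and the calcium store protein Casq1 at 35.9 ± 10.6 against 24.3 ± 10.8 (log2 0.62, adjusted p = 0.174). At 2 weeks they were at -0.26 and 0.62, and at 3 months at -0.63 and 0.28. Skeletal muscle markers were near the floor: all 6 of the 8 in the rat table averaged under 10, Mb was listed at 0 in all 20 libraries, and their sum ran from 4.54 to 24.6 in prediabetic livers, 7.55 to 23.6 at 2 weeks, 8.85 to 60.9 at 3 months and 10.6 to 20.9 at 6 months.

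In the family of Paqr9, 4 of 11 tested genes fell at 6 months and 0 rose, with a median of -0.40, where 10.0% of all genes were called lower. Paqr3, a regulator of signalling at the Golgi, was at 182 ± 81.5 against 494 ± 81.6 (log2 -1.57, SE 0.33, adjusted p = 0.00282). Paqr7, membrane progesterone receptor alpha, was at 2435 ± 1140 against 5185 ± 194 (log2 -1.22, SE 0.29, adjusted p = 0.00660). The progesterone receptor membrane components fell less, Pgrmc2 by 0.63 (adjusted p = 0.0124) and Pgrmc1 by 0.40 (adjusted p = 0.0271, a call that ended in 7 of 17 alternatives), the last named after its values were seen. Paqr3 and Paqr7 were also the 2 of 11 that fell at 3 months (-1.15 and -1.34), where 8.72% of all genes were called lower. The adiponectin receptors Adipor1 and Adipor2 stood at 0.03 and -0.47 at 6 months and did not pass the test, and they too are named after their values were seen.

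PPARalpha targets fell in 6 of 13 at 6 months and 3 of 13 at 3 months, with none higher, where 10.0% and 8.72% of all genes were called lower. The log2 changes were -1.57 for Angptl4, an inhibitor of lipoprotein lipase, and -1.30 for the lipid droplet protein Plin2 (adjusted p = 0.0143 and 0.0103). At 3 months those that fell included Ehhadh (-0.84) and Acaa1a (-0.39), both enzymes of peroxisomal fatty acid oxidation. Insulin-induced genes fell in 9 of 9 at 6 months and in 5 of 9 at 3 months (against 10.0% and 8.72% of all genes). Pnpla3 was at 58.3 ± 42.7 against 1610 ± 1901 (log2 -3.62, adjusted p = 0.00575), and Thrsp at a log2 change of -2.08 (adjusted p = 0.00790). At 3 months Pnpla3, Thrsp and Pklr were lowest, at -3.70, -2.41 and -1.40. The 9 of 9 is not independent evidence, since the list was chosen with earlier results of these libraries known.

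At 2 weeks no gene of any list passed the test, as for all genes, and the list medians were -0.08 for retinoid, 0.01 for leukotriene, 0.62 for excitation-contraction, -0.07 for PAQR, -0.47 for PPARalpha target and -0.59 for insulin-induced genes, against 0.02 over all genes. The 2 most abundant tested genes of the retinoid, leukotriene, PAQR and insulin-induced lists were Rbp4 (-0.08) and Aldh1a1 (-0.40), Mgst1 (-0.08) and Mgst3 (-0.22), Pgrmc1 (0.09) and Pgrmc2 (-0.34), and Thrsp (-0.93) and Srebf1 (-0.61). Stellate cell markers rose in 4 of 8 at 6 months and 4 of 8 at 3 months (against 11.0% and 7.76% of all genes). Of 8 hepatocyte markers, 1 was higher (Serpina1) and 1 lower (Ttr) at 6 months, near the 11.0% and 10.0% of all genes. The call of Serpina1 ended in 9 of 17 alternatives (limma adjusted p up to 0.156). At 3 months 0 of the 8 were higher and 2 lower (against 7.76% and 8.72% of all genes).

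**Figure D4:**
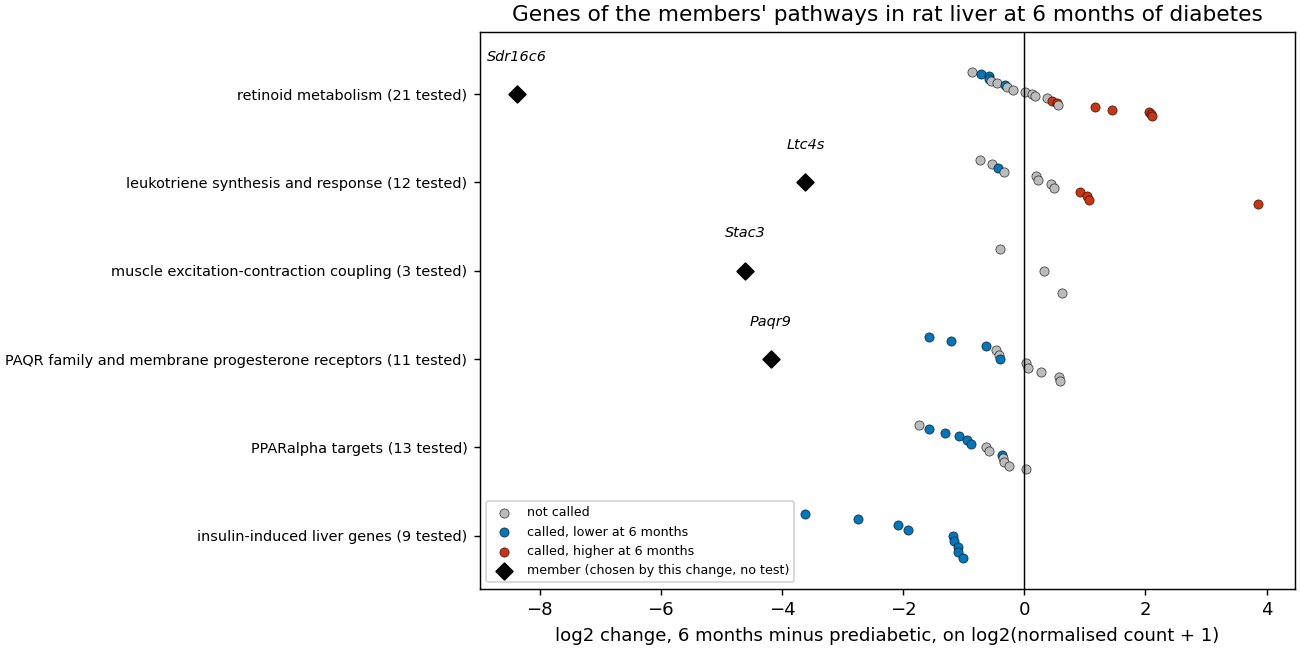
Log2 change at 6 months minus prediabetic for the tested genes of 6 pathway lists, one circle per gene, coloured by whether limma called it lower or higher. Sdr16c6, Ltc4s, Stac3 and Paqr9 are diamonds that carry no test. All 9 insulin-induced genes lie left of 0, retinoid and leukotriene genes lie on both sides, and each of Sdr16c6, Ltc4s, Stac3 and Paqr9 lies left of every other gene of its list.

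Some genes beside the 4 on the chromosome were called lower and others were not. In the order of build GRCr8, the 2 genes on each side of Sdr16c6 (chromosome 5) are Chchd7, Sdr16c5, Penk and Ptp4a2l1. Chchd7 fell by 0.52 at 6 months (adjusted p = 0.0491), Sdr16c5 and Penk averaged under 10, and Ptp4a2l1 is not analysed here. Around Ltc4s (chromosome 10), Mgat4b fell by 0.65 (adjusted p = 0.0305), while Sqstm1, Maml1 and Canx were at -0.18, 0.08 and -0.03 and not called. Around Stac3 (chromosome 7), Inhbc, a hepatocyte-secreted inhibin chain, fell by 1.41 (adjusted p = 0.0325) and Shmt2 by 0.45 (adjusted p = 0.00318), R3hdm2 was at -0.20 and not called, and Ndufa4l2 averaged under 10. Around Paqr9 (chromosome 8), Chst2, U2surp and Trpc1 were at 0.42, -0.02 and 0.18 and not called at 6 months, though Chst2 was called higher at 3 months (log2 0.73, adjusted p = 0.0484), and PCOLCE2 averaged under 10. In all, 4 of 11 tested neighbours fell at 6 months, where 10.0% of all genes were called lower.

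The mouse table asked whether any of the 4 genes moves when miR-29 is blocked, and here the tests are independent of the choice. None of the 4 passed a test. Paqr9 held 20403, 11413, 24292, 20668 and 17099 normalised counts in LNA-29 livers, against 14428, 21284, 13625, 12631, 25445 and 15949 in control livers. The groups overlapped, and the mean log2 level was 0.13 higher with LNA-29 (SE 0.21, 95% interval -0.33 to 0.58, limma adjusted p = 0.795). Ltc4s was low in mouse liver, at 4.82, 10.1, 10.3, 5.61 and 9.23 with LNA-29 against 6.49, 9.90, 3.14, 4.11, 2.05 and 6.37 in controls. Its log2 difference was 0.58 with overlapping ranges (two-sided exact permutation p = 0.130, n = 5 and 6), where the smallest p these groups allow is 0.00433. Without control replicate 2, the highest control, the difference was 0.76 and the exact permutation p 0.0476. The other 15 of 16 alternatives did not pass the threshold. Stac3 was also low in mouse liver, at 6.13, 6.60, 6.45, 9.74 and 3.38 with LNA-29 against 8.60, 10.5, 3.47, 3.40, 8.42 and 6.99 in controls, a log2 difference of -0.04 (exact permutation p = 0.892, n = 5 and 6) whose sign turned without control replicate 1, 2 or 5 or without LNA-29 replicate 5. Sdr16c6 was listed at 0 in all 11 mouse libraries, which leaves nothing to compare. Ltc4s and Stac3 averaged under 10 and stood outside the limma test.

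For background, limma called 2.43% of 14596 mouse genes (0.863% lower, 1.57% higher with LNA-29), and all LNA-29 libraries lay below every control library for 1.54% of genes, among them none of the 4. No gene of the 6 pathway lists was called in mice. Their most abundant tested genes with LNA-29 minus control were Rbp4 (0.12) and Aldh1a1 (0.22), Mgst1 (-0.24) and Lta4h (-0.07), Cacna2d1 (-0.19) and Jph1 (-0.49), Pgrmc1 (-0.10) and Adipor2 (-0.01), Cyp4a14 (-0.10) and Cyp4a10 (-0.04), and Fasn (-0.12) and Me1 (-0.32). Of 8 stellate cell markers, 1 was called higher with LNA-29 and 0 lower. The 1 was Col3a1, a known target of miR-29 (863 ± 404 against 353 ± 107, log2 1.23, SE 0.27, limma adjusted p = 0.0358). Of the genes most like Paqr9 in rats, Bdh1 was at 0.62 (adjusted p = 0.121) and Ghr at -0.11 (adjusted p = 0.669) in mice.

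**Figure D5:**
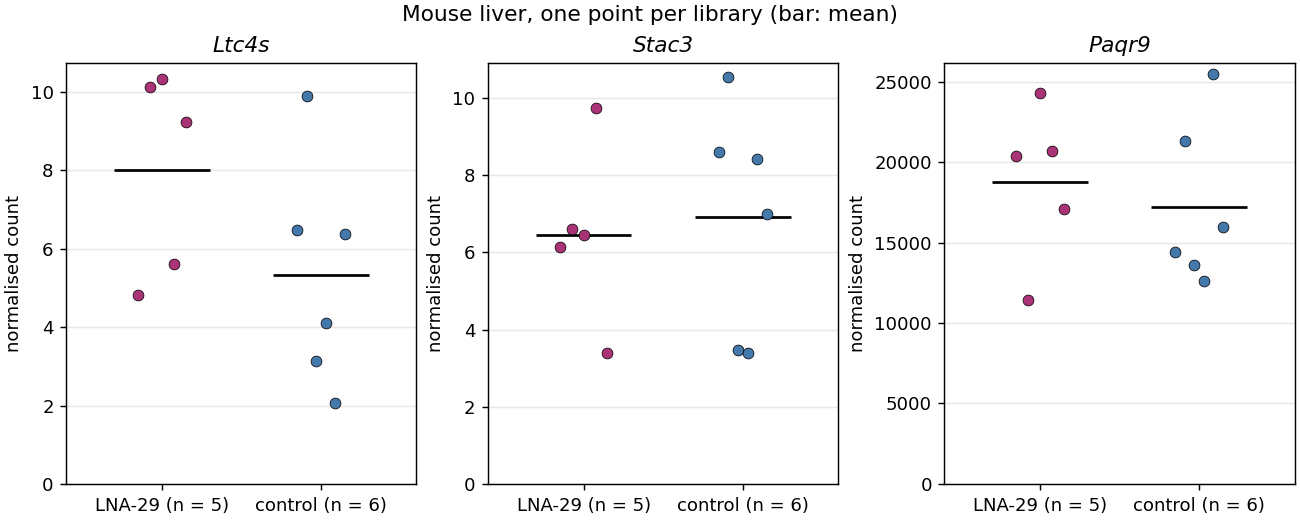
Normalised counts of Ltc4s, Stac3 and Paqr9 in mouse liver with LNA-29 (left in each panel, n = 5) and in controls (right, n = 6), one point per library with the mean as a bar. The groups overlap in every panel.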

How the data were processed

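Liver RNA of 20 rat and 11 mouse libraries, prepared with an Illumina TruSeq polyA+ kit per the labels, was read from 2 tables of normalised counts, a signal that is not whole numbers, as the authors deposited them. The tools DESeq2, Salmon and STAR and the builds rn6, mm9, mm10 and hg19 are named, per the submitters' processing notes, with versions and roles not given in the sources used here. Between 51.6% and 85.4% of low rat values per library fell within 0.02 of whole steps (mouse 36.2% to 66.7%), so whole reads could not be recovered, depth is unknown and no count model was run. Tables were normalised separately and are not compared in level.

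Values were transformed to log2(value + 1), and genes with a mean of at least 10 were tested, 13640 in rats and 14596 in mice. Each table was fitted as a whole with limma 3.58.1 (R 4.3.3), its variance trend on and no block, two-sided, with Benjamini-Hochberg adjustment over all genes, called under 0.05. Single genes and pairs were tested by permutation (scipy 1.17.1). The 4 genes, the 6 pathway lists and the 5 marker lists were chosen with earlier results of these data known. Named genes were, by rule, the 4 genes, the 5 most and 3 least similar to each, and up to 3 called genes per list and direction, or the 2 most abundant where none was called. Neighbours came from RefSeq gene order. Levels of genes with near-identical copies are uncertain, since reads may be split among them. Alternatives were other pseudocounts (10 and 0.1), no filter, rescaling, a block, fits of only the groups compared, and single libraries left out. Some genes the rule names are not reported here.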

Additional observations from a re-analysis of the deposited data

How the results depend on the processing

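With single rat libraries left out, the 6-month log2 differences ran from -8.79 to -7.98 (Sdr16c6), -4.27 to -2.77 (Ltc4s), -5.38 to -3.88 (Stac3) and -4.55 to -3.79 (Paqr9). Sdr16c6, with libraries at 0, moved with the pseudocount, to -5.81 at 10 and -10.26 at 0.1. Without prediabetic replicates 4 and 5 together, chosen after seeing the data, Sdr16c6, Ltc4s, Stac3 and Paqr9 were at -7.35, -3.73, -4.74 and -3.99. Over single omissions the genes called ran from 0 to 3 at 2 weeks and 1449 to 2393 at 3 months (2248 with all libraries, lowest without 3-month replicate 1). They ran from 1920 to 3573 at 6 months (2875 with all) and 120 to 540 with LNA-29 (355 with all). At 6 months the lowest count was without prediabetic replicate 4. The highest was without prediabetic replicate 2, the library farthest out on the second principal component. The 3 calls at 2 weeks arose without replicate 2 or replicate 3. The LNA-29 count was 212 with no filter. The count over the 6 pathway lists, 35, ran from 23 (without prediabetic replicate 4) to 38. In mice, Ltc4s ran from 0.39 to 0.76 and passed the threshold only without control replicate 2. Paqr9 ran from 0.02 to 0.30. Stac3 ran from -0.19 to 0.13, positive without control replicates 1 (0.03), 2 (0.08) or 5 (0.02) or LNA-29 replicate 5 (0.13). Sdr16c6 gave no value in mice. The cause of these shifts was not tested. With no sequencing depth given, levels near 0 carry no counting interval.

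A replicate block on the title numbers gave 70 LNA-29 calls and 0, 2231 and 2459 calls at 2 weeks, 3 months and 6 months. Deviations of same-numbered libraries correlated at -0.18 to 0.22. Differently numbered libraries were not compared, so these values cannot decide whether the numbers pair the samples. Under the block the pathway lists held 26 calls, Ltc4s was at 0.65, Stac3 at -0.02 and Paqr9 at 0.11 in mice.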
